A study of Mus musculus with 8 samples.

Results

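Cdkn2a and Cdkn2b are neighbouring genes of mouse chromosome 4 that encode cell cycle inhibitors and make up the senescence locus often called INK4/ARF. They were described here in keratinocytes that carry an oncogene and either lack or have Nfkbiz. The 2 genes were taken as the rows of the expression table whose annotation gives exactly 1 gene symbol, equal to Cdkn2a or Cdkn2b, and each was measured by 1 probe set, among 9294 genes tested. The 4 other measured genes whose symbol starts with Cdkn served as contrast: Cdkn2c, Cdkn2d, Cdkn1c and Cdkn3. Cdkn1a, Cdkn1b, Cdkn2aip and Cdkn2aipnl were not analysed here.

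Total RNA labelled with biotin was hybridised to 8 one-colour arrays. The 4 Nfkbiz KO arrays (KO RAS) came from keratinocytes lacking Nfkbiz, the gene of the nuclear NF-kB regulator IkBz, and the 4 wild-type arrays (WT RAS) came from wild-type keratinocytes. All cultures were of the C57BL/6 strain, grew in regular medium and had been transduced 3 days earlier with v-rasHa, an activated viral Ras oncogene. Per the labels the samples of a genotype are biological replicates, and the number of mice or litters behind them is not given in the sources used here. No culture without v-rasHa was compared, so the effect of the oncogene on the locus was not measured, and Nfkbiz itself was not analysed here.

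In mouse, Cdkn2a gives rise to 2 RefSeq transcripts with separate first exons: one encodes p16INK4a, an inhibitor of the kinases CDK4 and CDK6, and the other encodes p19ARF, an inhibitor of the p53 antagonist MDM2. Cdkn2b encodes p15INK4b, a relative of p16INK4a that also binds CDK4 and CDK6 and is known as a gene induced by TGF-beta in epithelial cells. With CDK4 and CDK6 inhibited, the RB protein stays active and holds back the E2F transcription factors that drive S-phase genes. In primary cells, activated Ras is known to raise products of this locus, and keratinocytes with such products can stop dividing in a state called senescence.

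The 3 promoter windows of the members are shown because both genes were higher in the same arrays and because Cdkn2a has separate starts that its probe set may not tell apart. Each window is from RefSeq on GRCm38.p6, which held both members, runs from 250 bases before to 50 bases after a transcript start, and is written 5′ to 3′ on the gene's strand, the minus strand. Capitals mark every match to the motifs searched on both strands, a kappaB-like motif (GGG, 5 bases of any kind and CC), TGANTCA (AP-1), CANNTG (E-box), GGGCGG (SP1), an interferon response motif (GAAA, 2 bases of any kind and GAAA), TTCNNNGAA (STAT) and TTTNNCGC (E2F-like).
Cdkn2a, upstream start, chr4:89294570-89294869: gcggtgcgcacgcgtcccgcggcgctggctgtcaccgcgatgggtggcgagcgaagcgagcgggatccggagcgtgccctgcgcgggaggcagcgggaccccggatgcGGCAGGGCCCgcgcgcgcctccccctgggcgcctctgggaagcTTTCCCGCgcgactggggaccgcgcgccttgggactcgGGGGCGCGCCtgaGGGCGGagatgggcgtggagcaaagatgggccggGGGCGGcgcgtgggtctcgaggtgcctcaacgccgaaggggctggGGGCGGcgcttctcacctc
Cdkn2a, downstream start, chr4:89282143-89282442: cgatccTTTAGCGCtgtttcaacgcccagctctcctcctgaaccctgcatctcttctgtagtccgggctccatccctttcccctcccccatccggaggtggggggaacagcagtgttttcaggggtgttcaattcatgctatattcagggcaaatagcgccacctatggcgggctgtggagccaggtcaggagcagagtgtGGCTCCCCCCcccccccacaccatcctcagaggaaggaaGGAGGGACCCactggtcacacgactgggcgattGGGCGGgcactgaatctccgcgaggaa
Cdkn2b, chr4:89310983-89311282: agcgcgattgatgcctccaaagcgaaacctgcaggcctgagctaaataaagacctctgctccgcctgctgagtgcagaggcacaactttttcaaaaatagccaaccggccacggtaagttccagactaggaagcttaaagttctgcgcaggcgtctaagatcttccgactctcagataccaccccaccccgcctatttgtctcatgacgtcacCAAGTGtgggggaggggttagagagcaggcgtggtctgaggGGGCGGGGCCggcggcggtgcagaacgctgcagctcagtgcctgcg
The upstream start is that of the first exon used by p19ARF and the downstream start that of the first exon used by p16INK4a. The G and C content of the 3 windows was 77% at the upstream start of Cdkn2a, 60.3% at its downstream start and 57.7% at Cdkn2b. Both Cdkn2a windows held 1 E2F-like match, 99 bases before the upstream start and 244 bases before the downstream start, and the Cdkn2b window held none, while 5.17% of 32851 windows of this length held one. The kappaB-like motif was matched 2 times in each Cdkn2a window and 1 time in the Cdkn2b window, where it overlaps the SP1 match. Of all windows, 50.8% held the kappaB-like motif, and 35.7% held the SP1 motif, which had a match in all 3 windows shown. An E-box was matched 1 time, in the Cdkn2b window (72.3% of all windows). AP-1, interferon response and STAT motifs, held by 7.81%, 3.44% and 8.3% of all windows, had no match in the 3 windows. These are letter matches and were not tested as binding sites.

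Cdkn2a, measured by the probe set 1450140_a_at, was clearly higher in KO RAS cells. Its log2 signal was 6.02, 5.94, 5.78 and 5.62 in KO RAS replicates 1 to 4, against 4.33, 4.30, 4.15 and 4.21 in WT RAS replicates 1 to 4. The groups did not overlap: the lowest KO RAS array lay well above the highest WT RAS array. The means were 5.84 ± 0.17 in KO RAS and 4.25 ± 0.08 in WT RAS (SD, n = 4 each), a log2 fold change of 1.59 ± 0.08 (SE; 95% interval 1.41 to 1.78). In limma the Benjamini-Hochberg adjusted p over all genes tested was 7.5e-07. The exact permutation test over the 8 arrays, 2-sided, gave p = 0.0286, the smallest that its 70 arrangements allow. In whole cultures a higher signal from more cells of a kind and one from more RNA per cell cannot be told apart. The suffix of the probe set marks one that can detect several transcripts of its gene, so the data do not say whether the p16INK4a or the p19ARF transcript, or both, was higher.

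The WT RAS signal of Cdkn2a was low. On KO RAS arrays 60.1% to 64.3% of genes had a lower signal than Cdkn2a, and on WT RAS arrays 38.7% to 41.9% did. All 4 KO RAS values lay above the array medians of 4.49 to 4.57 on the log2 scale, and all 4 WT RAS values lay below them. No detection calls were used here, so the WT RAS signal could not be told from background. With every value below its array median raised to that median, the log2 fold change of Cdkn2a was 1.29 (limma adjusted p = 2.34e-06).

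Cdkn2b, measured by the probe set 1449152_at, was higher in KO RAS cells too, by a smaller amount. Its log2 signal was 8.22, 8.19, 8.19 and 8.02 in KO RAS replicates 1 to 4, against 7.55, 7.45, 7.53 and 7.50 in WT RAS replicates 1 to 4. Again no KO RAS value reached down to a WT RAS value, and all 8 values lay far above the array medians. The means were 8.15 ± 0.09 in KO RAS and 7.51 ± 0.05 in WT RAS (SD, n = 4 each), a log2 fold change of 0.65 ± 0.06 (SE; 95% interval 0.52 to 0.77) or 1.57-fold (limma adjusted p = 3.78e-05). It was the 65th largest positive difference, and the exact permutation test gave p = 0.0286, also the smallest possible. On KO RAS arrays 83.4% to 85.1% of genes had a lower signal than Cdkn2b, and 77.7% to 78.9% did on WT RAS arrays. Replicate 4 was the lowest KO RAS array for both members.

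Both members thus passed the limma test as higher, in a comparison in which 4.47% of the 9294 genes were called higher and 4.43% lower at an adjusted p of 0.05. Both also had groups that did not overlap with KO RAS higher, which held for 7.91% of genes (15.9% without overlap in either direction). The change of Cdkn2a exceeded that of Cdkn2b by 0.95 on the log2 scale. Within each array, the log2 signal of Cdkn2a minus that of Cdkn2b was -2.31 ± 0.10 in KO RAS and -3.26 ± 0.10 in WT RAS (SD, n = 4 each), and the exact permutation test of this difference gave p = 0.0286, the smallest of 70 arrangements. In limma the 95% interval of the difference ran from 0.79 to 1.10 (adjusted p = 7.57e-06). With values below the array median raised to it, the difference was 0.65 (exact permutation p = 0.0286).

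**Figure D1:**
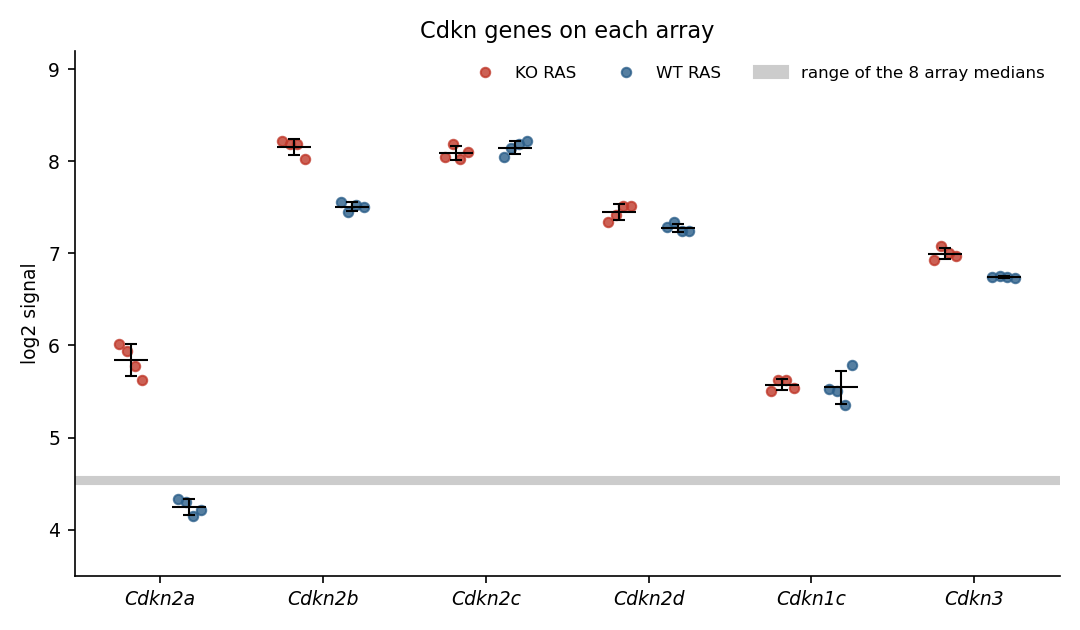
Log2 signal of the 6 measured Cdkn genes on each array, with 4 KO RAS points (red, left) and 4 WT RAS points (blue, right) per gene, the mean and SD in black, and the range of the 8 array medians as a grey band. Cdkn2a lies above the band on KO RAS arrays and below it on WT RAS arrays, and heights of different genes are not comparable because each has its own probes.

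The other Cdkn genes had smaller differences between the groups. Cdkn2c and Cdkn2d encode p18INK4c and p19INK4d, the remaining inhibitors of CDK4 and CDK6 of the INK4 family. Cdkn2c averaged 8.09 ± 0.07 in KO RAS and 8.15 ± 0.07 in WT RAS (SD, n = 4 each), with a log2 fold change of -0.06 (95% interval -0.19 to 0.07; limma adjusted p = 0.652). Cdkn2d averaged 7.45 ± 0.08 in KO RAS and 7.28 ± 0.04 in WT RAS (SD, n = 4 each), and its groups narrowly did not overlap. Its log2 fold change of 0.17 (95% interval 0.05 to 0.30) did not pass the limma test (adjusted p = 0.0938), although it passed with low values raised to the array median (adjusted p = 0.0321) and with a trended, robust variance prior (adjusted p = 0.0384). Cdkn1c, the gene of the CDK inhibitor p57KIP2, had 0.03 (95% interval -0.15 to 0.21; limma adjusted p = 0.9).

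Cdkn3, which encodes a phosphatase acting on CDKs and is expressed with cell division, was the 1 of these 4 genes that rose. Across all genes 4.47% were called higher, and 7.91% were higher in KO RAS without overlap. The log2 signal of Cdkn3 was 6.93 to 7.08 in the KO RAS arrays and 6.73 to 6.75 in the WT RAS arrays, without overlap. Its log2 fold change was 0.25 ± 0.05 (SE; limma adjusted p = 0.00886), below that of either member. The log2 fold change of Cdkn2a exceeded those of the 4 other Cdkn genes by 1.34 to 1.65, and that of Cdkn2b exceeded them by 0.39 to 0.70. Each of these 8 differences was taken within arrays, separated the groups and had an exact permutation p of 0.0286, the smallest possible. Benjamini-Hochberg adjustment over the 8 pairs leaves equal p-values unchanged, so the adjusted p of 0.0286 adds nothing to the unadjusted one. The 2 members were chosen with earlier results of these data known.

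All 20 measured neighbours had smaller differences than either member, although the members, unlike the neighbours, were picked with earlier results of these data known. In the order of the reference gene table, Cdkn2a and Cdkn2b had 1 listed gene between them, the non-coding Gm12610, not analysed here. Among the 10 nearest measured genes on each side of the locus, 2 rose and none fell in limma and 18 missed the threshold, where 8.9% of all genes were called in either direction. The median log2 fold change of these 20 genes was 0.01, against -0.01 over all genes. On the Cdkn2a side lay 8 type I interferon genes, the ligands of the antiviral response, with log2 fold changes, looked up after the values were seen, of -0.18 (Ifna11, adjusted p = 0.0644) to 0.04 (Ifnb1, adjusted p = 0.839), none called in limma (1, Ifna11, at an unadjusted p of 0.05), and 6 of the 8 had mean signals below the array medians. Interferon alpha genes are close copies of each other whose probes may share targets. Next to Cdkn2b, Dmrta1, named after its values were seen, had 0.01 ± 0.06 (SE) at a signal near 2.18 in both groups, far below the array medians.

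Both neighbours that rose lay farther out on the Cdkn2b side. Ift74, an intraflagellar transport gene of cilia, had a log2 fold change of 0.28 ± 0.06 (SE; limma adjusted p = 0.0135). Caap1, named for a role in caspase activity and apoptosis, had 0.20 ± 0.05 (limma adjusted p = 0.044), and it lost its call, with adjusted p of 0.0638 to 0.118, without any single array other than WT RAS replicate 1. The values of Ift74 in KO RAS replicates 1 to 4 were 7.57, 7.56, 7.71 and 7.58, against 7.34, 7.25, 7.44 and 7.25 in WT RAS replicates 1 to 4.

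**Figure D2:**
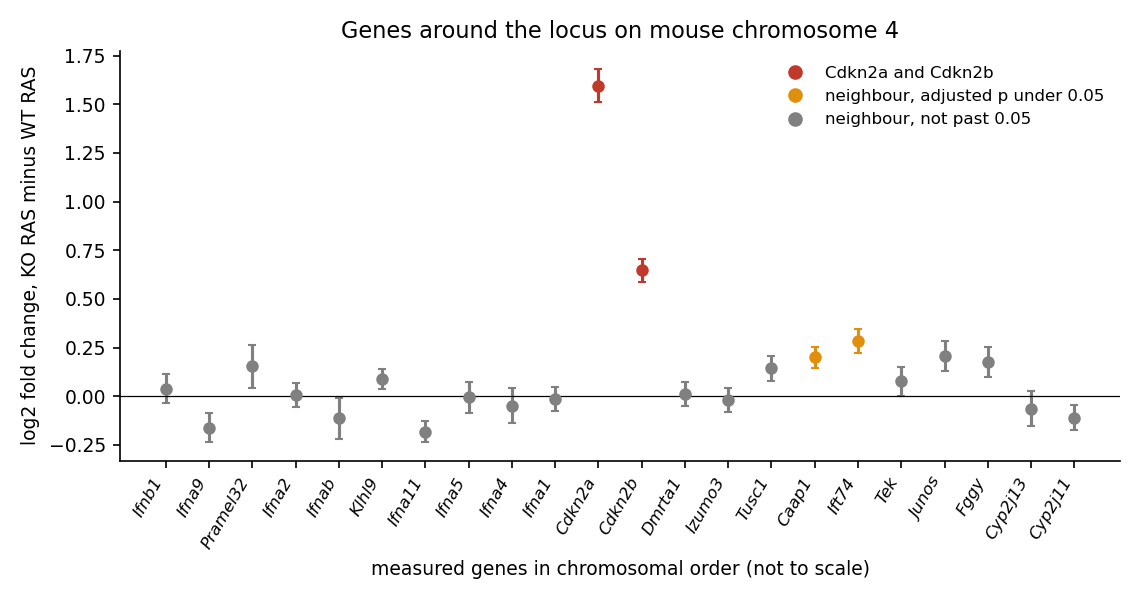
Log2 fold change, KO RAS minus WT RAS, with its standard error for Cdkn2a, Cdkn2b and the 10 nearest measured genes on each side, in chromosomal order and not to scale. Cdkn2a at 1.59 and Cdkn2b at 0.65, picked with earlier results of these data known, stand above all 20 neighbours, whose highest value is 0.28 for Ift74.

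Genes of the RB pathway, on which p16INK4a and p15INK4b act, had small differences where measured. Of 5 measured of 21 listed cyclin, CDK, RB and E2F genes, 1 rose in limma and 4 missed the threshold. Their median log2 fold change was -0.01, and 8.9% of all genes were called in either direction. Cdk4, the kinase that both inhibitors bind, was 10.44 ± 0.03 in KO RAS and 10.25 ± 0.04 in WT RAS (SD, n = 4 each), a log2 fold change of 0.19 ± 0.05 (SE; limma adjusted p = 0.0355). Its probe set has a suffix for probes that can bind other transcripts, and the call was lost without any single array (adjusted p of 0.0545 to 0.0951). The other 4, E2f4, E2f7, Ccne2 and Tfdp1, had log2 fold changes between -0.10 and 0.04. Cdk6, Ccnd1 and Rb1 were not analysed here.

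Most S-phase genes driven by E2F factors did not pass either. Of 7 measured of 40 listed, Tk1, the thymidine kinase gene, rose by 0.21 ± 0.06 (SE; limma adjusted p = 0.0459), none fell and 6 did not pass, with a median of 0.03. Across all genes 8.9% were called in either direction, so most genes of any kind did not pass. Without any single array other than KO RAS replicate 1, the call of Tk1 was lost (adjusted p of 0.0749 to 0.118). The 6 others had log2 fold changes between -0.08 and 0.14, the highest being Ezh2, described among the regulators of the locus, whose call under 2 alternatives gave 2 called members of this list in each.

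Mitosis genes were higher beside the higher inhibitors. Of 7 measured of 27 listed, 6 rose and none fell in limma and 1 missed the threshold, with a median log2 fold change of 0.23, where 4.47% of all genes were called higher. The kinesin gene Kif20a averaged 8.56 ± 0.11 in KO RAS and 8.17 ± 0.04 in WT RAS (SD, n = 4 each), with a log2 fold change of 0.39 (limma adjusted p = 0.00178). The proliferation marker Mki67 averaged 9.36 ± 0.09 in KO RAS and 9.03 ± 0.03 in WT RAS (SD, n = 4 each), a log2 fold change of 0.33 (adjusted p = 0.00319). The mitotic kinase gene Plk1 and the cyclin gene Ccnb2 had 0.24 and 0.23, with limma adjusted p of 0.0241 and 0.0145. The rises were thus well below that of Cdkn2a, and 3 members rose in place of 6 without WT RAS replicate 1 or 2 or KO RAS replicate 2 or 4.

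Most measured genes of the p19ARF side of the pathway, largely p53 target genes, did not pass the test. Of 15 measured of 33 listed, 3 rose in limma, 1 fell and 11 missed the threshold, and their median change was 0.03 on the log2 scale, where 4.47% of all genes were called higher and 4.43% lower. Gadd45a, a growth arrest gene induced by DNA damage, stood out. Its log2 signal was 8.83, 8.85, 8.91 and 8.79 in KO RAS replicates 1 to 4, against 8.29, 8.15, 8.29 and 8.11 in WT RAS replicates 1 to 4. The groups did not overlap, and the log2 fold change was 0.63 ± 0.06 (SE; limma adjusted p = 4.51e-05), close to that of Cdkn2b. Gtse1, a regulator of p53 in the G2 and S phases, rose by 0.28 (adjusted p = 0.0176) and the DNA repair gene Xpc by 0.24 (adjusted p = 0.0474).

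The polo-like kinase gene Plk3 fell by 0.22 (limma adjusted p = 0.0394). Of the listed p53 targets, Bbc3, Pmaip1, Zmat3 and Phlda3 had log2 fold changes of 0.16, 0.03, -0.06 and 0.01 and did not pass. These 4 were chosen after their values were seen, and other genes of the list, such as Gadd45a, were called. Plk3 and Xpc lost their calls without any single array other than KO RAS replicate 4 or WT RAS replicate 4. Gtse1 lost its call without WT RAS replicate 2 (adjusted p = 0.0539) or KO RAS replicate 3 (adjusted p = 0.0501), and 1 member rose in place of 3 in those runs. Trp53, Mdm2 and Cdkn1a were not analysed here.

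Most genes known to act on the locus did not pass the test. Of 14 measured of 51 listed, 2 rose, 2 fell and 10 did not pass, with a median of 0.02, where 8.9% of all genes were called in either direction. Tgfb3, a ligand of the TGF-beta family whose signal is known to induce Cdkn2b, had log2 signals of 5.93, 6.18, 6.01 and 5.89 in KO RAS replicates 1 to 4, against 5.07, 5.38, 5.33 and 5.31 in WT RAS replicates 1 to 4. The groups did not overlap, with a log2 fold change of 0.73 ± 0.08 (SE; limma adjusted p = 0.000217). The other measured ligand gene of the list, Tgfb1, named after its values were seen, went the other way. It had -0.22 and narrowly did not pass (limma adjusted p = 0.0572). Id3, an inhibitor of basic helix-loop-helix factors, rose by 0.30 ± 0.05 (adjusted p = 0.00393).

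Twist2, a basic helix-loop-helix factor known to counter Ras-induced senescence, fell to 7.49 ± 0.12 in KO RAS, against 8.51 ± 0.04 in WT RAS (SD, n = 4 each), with a log2 fold change of -1.02 (limma adjusted p = 2.21e-06). Twist1, its close relative, fell by 0.31 (adjusted p = 0.0203), at signals of 4.10 in KO RAS and 4.41 in WT RAS that lie below the array medians, and the call was lost without WT RAS replicate 1 or 3 or KO RAS replicate 1, 2 or 4, which left 1 gene of the list that fell. Twist2 is also in the list of fibroblast markers. The Polycomb gene Ezh2, the methyltransferase known to silence the locus, had log2 signals of 8.98 ± 0.04 in KO RAS and 8.84 ± 0.01 in WT RAS (SD, n = 4 each). Its log2 fold change of 0.14 did not pass (adjusted p = 0.094), although the groups did not overlap and it passed with a trended, robust prior (adjusted p = 0.0135) and with low values raised to the array median (adjusted p = 0.0185). Eed, Ring1 and Phc1, the other measured Polycomb genes, picked with their values known, had 0.11, -0.09 and 0.08 and did not pass. Bmi1 was not analysed here.

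Among the measured markers of senescence, falls outnumbered rises. The listed nuclear markers Lmnb1, Hmgb1 and Hmgb2 were not analysed here. Of 22 measured of 38 listed, 12 fell in limma, 2 rose and 8 missed the threshold, and their median change was -0.55 on the log2 scale, where 4.43% of all genes were called lower. This list was chosen with earlier results of these data known, so its counts are not an independent measure of senescence. The largest falls were in Csf3 (-2.27), Ccl20 (-1.91), Mmp3 (-1.40) and Csf2 (-1.35), which encode colony-stimulating factors, a chemokine and the stromelysin-1 protease. The 2 that rose, named after their values were seen, were Igfbp2, the gene of an insulin-like growth factor binding protein, with 0.74 and the adhesion gene Icam1 with 0.56. The 8 that missed the threshold had -0.14 to 0.04, the highest being Glb1, the gene of the lysosomal beta-galactosidase used as a senescence stain.

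**Figure D3:**
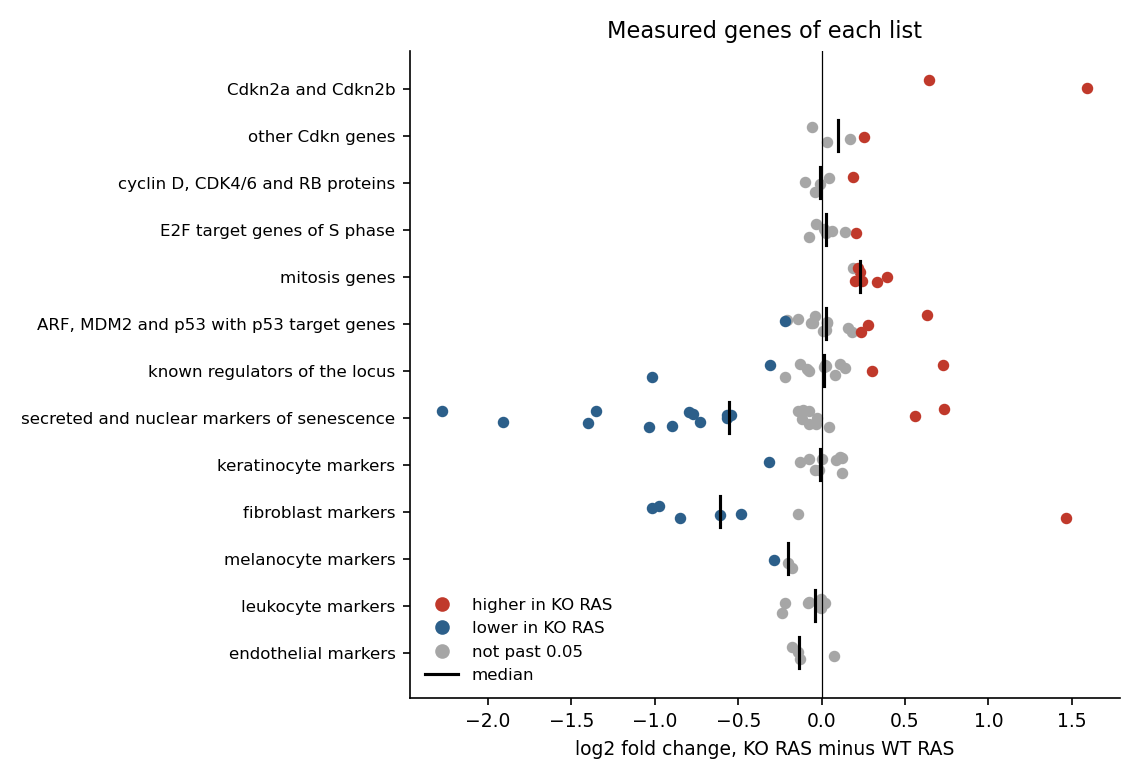
Log2 fold change, KO RAS minus WT RAS, of Cdkn2a and Cdkn2b (top) and of each measured gene of the lists, with red for genes higher in KO RAS, blue for lower, grey for genes not past an adjusted p of 0.05 and a black bar for each list's median. Mitosis genes lie to the right of 0 with a median of 0.23. Of 22 senescence markers 12 were called lower in KO RAS, with a median of -0.55, where 4.43% of all genes were called lower. The lists were chosen with earlier results of these data known.

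Markers of the cells in the cultures were read from the same arrays. Of 10 measured keratinocyte markers, Col17a1, a hemidesmosome collagen, fell by 0.31 (limma adjusted p = 0.0154) and 9 did not pass. Across all genes 8.9% were called in either direction. At an unadjusted p of 0.05, 2 of the 10 were lower, and with a trended, robust prior 1 was called higher and 2 lower. The 10 markers had a median log2 fold change of -0.01. Their mean log2 signal was 9.73 to 9.91 in KO RAS and 9.81 to 9.84 in WT RAS arrays. Among 7 measured fibroblast markers 5 fell, 1 rose and 1 missed the threshold, with a median of -0.61, where 4.43% of all genes were called lower and 4.47% higher, and a mean log2 signal of 5.66 to 5.86 in KO RAS and 6.09 to 6.16 in WT RAS arrays. Dcn, a matrix proteoglycan, fell by 0.97 and Dpt, dermatopontin, by 0.85, while Postn, periostin, rose by 1.47. Of 3 melanocyte markers Pmel fell by 0.28 and 2 did not pass (all 3 were lower at an unadjusted p of 0.05, and all 3 were called lower with a trended, robust prior), with a mean log2 signal of 9.28 to 9.57 in KO RAS and 9.63 to 9.72 in WT RAS arrays. None of 8 leukocyte or 4 endothelial markers was called in limma (2 and 1 were lower at an unadjusted p of 0.05, and 1 leukocyte marker was called lower with a trended, robust prior or without WT RAS replicate 3), with medians of -0.04 and -0.14 and mean log2 signals of 4.65 to 4.75 in KO RAS and 4.71 to 4.84 in WT RAS for leukocytes, and of 3.94 to 4.12 in KO RAS and 4.07 to 4.16 in WT RAS for endothelium. The part of these other cells in the signals of Cdkn2a and Cdkn2b was not tested.

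The genes most like each member were found by the root mean square difference over the 8 arrays, after each gene's WT RAS mean was subtracted. Since the genotypes form separate clusters, this measure mainly picks genes with a similar size of change. Nearest to Cdkn2a was Postn, with a difference of 0.15 on the log2 scale. Its log2 signal was 6.90, 6.74, 6.85 and 6.65 in KO RAS replicates 1 to 4, against 5.48, 5.25, 5.10 and 5.44 in WT RAS replicates 1 to 4. Then came Bex1, a brain-expressed X-linked adaptor gene, at 0.16, Serpinb6b, a clade B protease inhibitor, at 0.20, and the epidermal lipoxygenase gene Alox12e and the phospholipid scramblase gene Plscr2, both at 0.22. Their log2 fold changes were 1.47 for Postn, 1.61 for Bex1, 1.69 for Serpinb6b, 1.38 for Alox12e and 1.37 for Plscr2, around the 1.59 of Cdkn2a.

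Nearest to Cdkn2b were Upk3bl, a relative of the uroplakin genes, with a difference of 0.037, and Scara3, a scavenger receptor gene, with 0.047. Gadd45a followed with 0.059, then Atf3, a stress-induced transcription factor gene, with 0.073, and Ifih1, the gene of the RNA sensor MDA5, with 0.075. Their log2 fold changes lay between 0.62 for Scara3 and 0.66 for Atf3, beside the 0.65 of Cdkn2b. The neighbouring members were not each other's closest match, with Cdkn2b 59th in nearness to Cdkn2a and Cdkn2a 8979th in nearness to Cdkn2b. These ranks mainly restate that the 2 log2 fold changes differed in size, and are no measure of whether the members vary together.

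**Figure D4:**
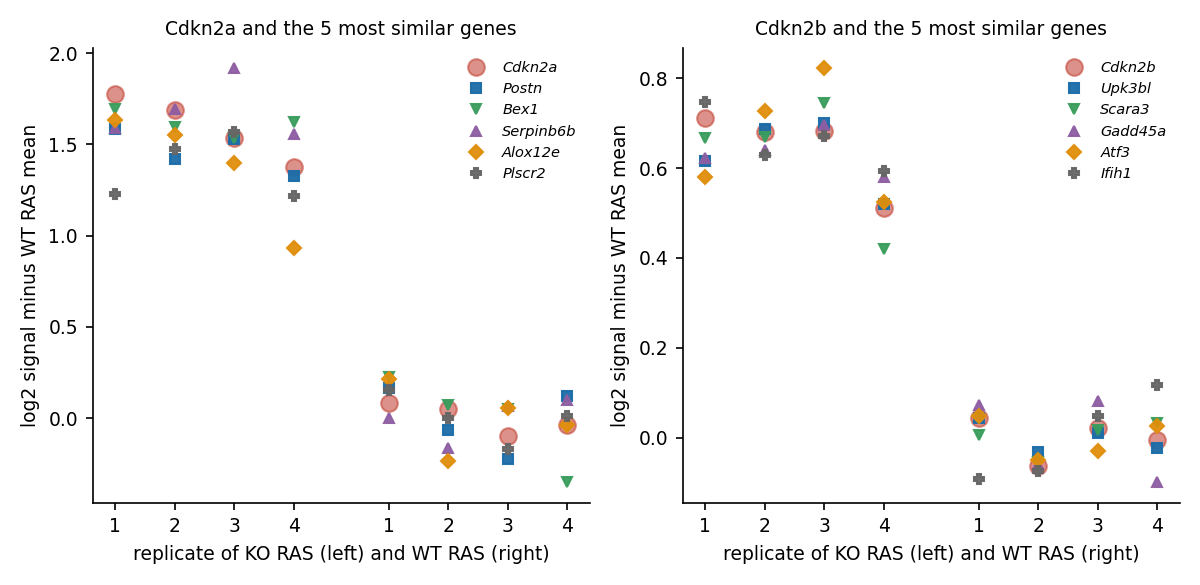
Log2 signal minus the WT RAS mean on each KO RAS array (left in each panel) and WT RAS array (right) for Cdkn2a or Cdkn2b (large red circles) and its 5 most similar genes. The KO RAS points of Cdkn2a and its matches lie well above the WT RAS points, and so do those of Cdkn2b on the smaller scale of its panel, where its log2 fold change is 0.65.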

How the data were processed

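The authors' deposited table held log2 signals of 11373 probe sets on each of 8 arrays. The log2 scale was read from the range of values, 1.57 to 13.9, and how the authors summarised and normalized the arrays, or on which build, is not given in the sources used here. The arrays had medians of 4.49 to 4.57, and correlations across probe sets were 0.997 to 0.998 within and 0.994 to 0.996 between genotypes. Probe sets were named by the platform's annotation: 9374 had 1 symbol, 479 several and 1520 none. Where a gene had several probe sets with 1 symbol, the brightest stood for it, and each member had only 1. Of the 9294 genes, 9201 matched a GRCm38.p6 gene table, used for newer symbols and gene order. limma 3.58.1 (lmFit and eBayes, R 4.3.3) compared 4 KO RAS with 4 WT RAS arrays without covariates, on the deposited values, with Benjamini-Hochberg adjustment over all genes and a threshold of 0.05. "Rose", "fell" and "called" refer to this test, and the fit was tested on simulated data. Single values were also tested by exact permutation. The limma p-values set the difference between the groups against the spread between replicates, whose number limits the precision. The number of mice or litters behind that spread is not given in the sources used here. The median standard error was 0.069.

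Members and lists were chosen with earlier results of these data known. Ezh2, Twist2, Perp and Tek are each in 2 lists. Named genes are the Cdkn genes, from each list the called members that changed most, up to 4, called neighbours, the 5 genes most like each member, and Cdk4 and Ezh2; others were named after their values were seen. The alternatives were repeated quantile normalization, median centring, leaving out the dimmest 25% of genes, a floor at the array median, the mean of a gene's probe sets, all probe sets, a trended robust prior, array weights, the replicate number as a block and leaving out each array.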

Additional observations from a re-analysis of the deposited data

Results flagged for a closer look

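In 4 of 80 groups of 4 arrays examined, 1 array stood apart from the others by more than Dixon's 95% critical value for the gap over the range, and chance alone sets apart about 1 group in 20. Cdkn2b was 8.02 in KO RAS replicate 4, where the other KO RAS arrays had 8.19 to 8.22, and without that array its log2 fold change was 0.69. Twist2 was 8.44 in WT RAS replicate 2, below 8.53 in the others. Xpc was 6.99 in WT RAS replicate 4, above 6.83 to 6.84 in the others. Ift74 was 7.71 in KO RAS replicate 3, above 7.56 to 7.58 in the others.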

How the results depend on the processing

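The log2 fold changes of Cdkn2a and Cdkn2b kept their direction and their call under all 17 alternatives, with 1.29 to 1.67 for Cdkn2a (limma adjusted p of 4.19e-12 to 1.9e-05) and 0.62 to 0.69 for Cdkn2b (2.46e-09 to 0.00051). Leaving out single arrays gave 1.53 to 1.67 and 0.62 to 0.69. The difference between the 2 changes was 0.91 to 0.99 without single arrays, where limma was used in place of the permutation test. Permuted within replicate numbers, the difference of 0.95 had an exact p = 0.125, the smallest that 4 pairs allow. Same-numbered arrays showed no clear pairing: their deviations correlated at 0.0855, -0.00131, 0.0312 and -0.0491, and 1 of 4 KO RAS arrays correlated best with its own number. With 4 arrays per group this check is weak and cannot settle whether the numbers pair the arrays. With the replicate block 325 genes were called higher and 334 lower, in place of 415 and 412, and Cdk4, Tk1, Plk3, Xpc, Caap1 and Col17a1 lost their calls. With arrays centred on their medians, 482 were higher and 314 lower. Of the 40 named genes, 29 kept their side of the threshold under every alternative run for them, and Cdkn1c, never called, had either sign. Signals below the array medians, such as Cdkn2a in WT RAS, limit the precision of its fold.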
